A study of Mus musculus with 15 samples.

Results

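The comparison described here sets the 3 arrays labelled baseline B against the 3 arrays labelled baseline A, 6 of the 15 mouse liver arrays of a study of thyroid hormone excess. The 6 arrays were chosen by sample title, not by any measured value, and the comparison ran over every gene detected in the series. All animals were male C57BL/6 mice, 8 weeks old, kept under 12 hours of light a day with free access to food and water, and no engineered allele is named for any group. The study gave liothyronine (L-T3), the active form of thyroid hormone, at 20 μg per 100 g body weight, and ran in 2 subsets. One subset held the chronic T3 group, read 6 hours after the last of 14 daily injections, the T3 withdrawal group, read 10 days after the last of 14 injections, and baseline B. The other held the acute T3 group, read 6 hours after 1 injection, and baseline A. Neither baseline group received L-T3. Whether baseline mice were injected with vehicle, the hour at which each group was killed and the time since the last meal are not stated in the labels, so subset, hour of killing, handling and array processing cannot be told apart in this comparison.

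The liver clock is a loop of transcription factors that repeats each day. CLOCK and BMAL1 (encoded by Arntl) switch on the Per and Cry repressors, the nuclear receptors Nr1d1 and Nr1d2 and the factors Dbp and Tef, and Nr1d1 and Nr1d2 in turn repress Arntl, so that in mouse liver Arntl transcripts peak around dawn when those of Dbp and Per2 are low. Genes of lipid and glucose metabolism follow both this loop and feeding: insulin and sugar raise Srebf1, Fasn and Pklr after a meal, whereas Pck1, Ppargc1a and targets of the fat-burning receptor PPARα are raised by fasting.

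Each value below is a log2 intensity after background correction, quantile normalization and an offset of 16, and each difference is baseline B minus baseline A, with the standard error of 1 limma fit across all 15 arrays. A gene was called when its Benjamini-Hochberg adjusted p was under 0.05 over all 8976 genes tested. The offset shrinks differences of dim genes. Where a called gene was detected on none of the 3 arrays of a group and on all 3 of the other, its difference is given as a lower bound on the fold. The labels do not say whether the 3 samples of a group came from separate animals, so the p-values measure the spread between samples. That spread was pooled within all 5 groups, treated ones included. In bulk tissue, fewer cells of a type cannot be told apart from less RNA per cell.

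Baseline B arrays had 12998, 12891 and 11049 probes detected above background, against 13805, 14158 and 13583 on baseline A arrays. Mean raw signals of 525 to 633 in baseline B overlapped those of 567 to 651 in baseline A. Probes detected on all 3 arrays of baseline B and on none of baseline A numbered 7, and the reverse held for 503 probes. Baseline B replicate 3 had the fewest detected probes and the highest median raw signal of the 15 arrays, at 134. Hepatocyte markers such as Alb and Apob were measured for 12 of 12 genes and summed to 306537 to 314613 in baseline B and 270022 to 305677 in baseline A on the linear scale, with none called and 1 at an unadjusted limma p under 0.05, a threshold that 29.8% of all genes passed.

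The baselines differed in 782 genes, 8.71% of those tested, with 245 higher in baseline B (2.73%) and 537 lower (5.98%). The largest fitted differences upward were in clock genes, clock outputs and genes of fat and sugar handling: Rgs16, Dbp, Usp2, Ciart, Thrsp and Gys2. Downward, among genes detected in both groups, they were led by Tff3 and Elovl3, and Arntl, Chka and Cdkn1a, detected on no baseline B array, were lower by bounds that give them no rank. The median size of a called difference was 0.81, and 89 of the higher and 171 of the lower genes differed by at least 2-fold. The 3 arrays of one group did not overlap the 3 of the other in 2684 genes (29.9%), 978 of them higher and 1706 lower in baseline B, and in 770 of the 782 called genes.

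**Figure D1:**
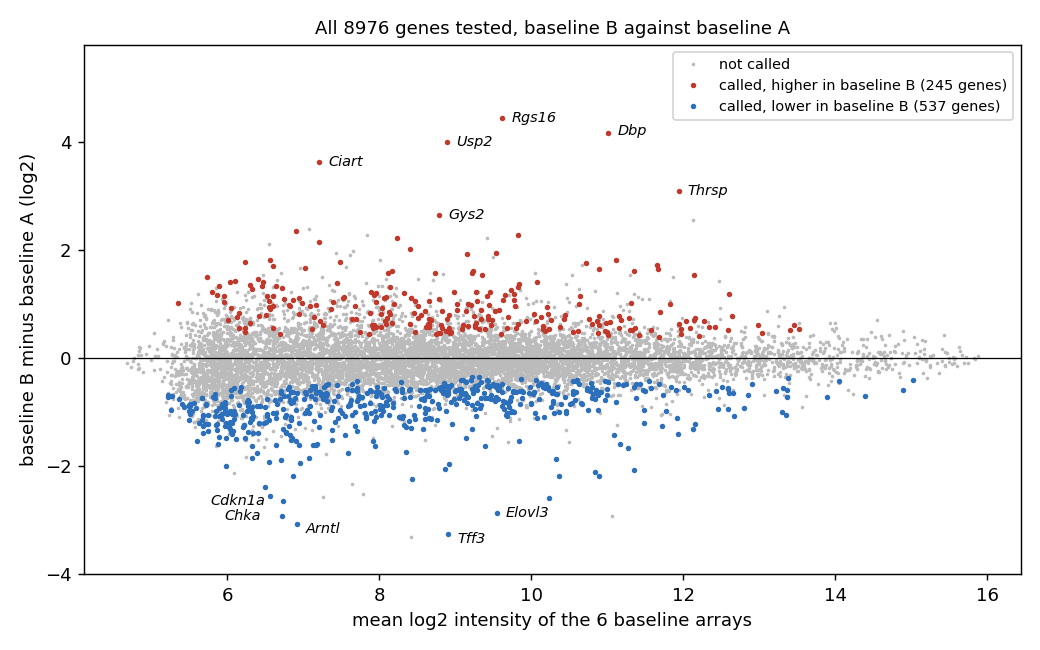
Difference between baseline B and baseline A (log2, vertical) against the mean log2 intensity of the 6 arrays (horizontal) for all 8976 genes, with the 245 called genes higher in baseline B in red, the 537 lower in blue and genes not called in grey. Rgs16, Dbp, Usp2 and Ciart lie highest; Arntl, Chka and Cdkn1a are drawn at their fitted values although no baseline B array detected them.

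The count of calls rested on single arrays: it was 128 without baseline A replicate 1, 230 without baseline A replicate 3, 275 without baseline B replicate 3, 362 without baseline B replicate 2 and 1717 without baseline A replicate 2. Of the 782 genes, 111 were called with each of the 6 arrays left out in turn, 41 higher and 70 lower. With the 6 baseline arrays fitted alone 185 were called, and 35 of the 81 called genes named here were among them. The share of calls that were higher in baseline B was 31.3%, and was 5.15% (58 higher and 1068 lower) when arrays were scaled by their median, a setting that moved the median difference of all genes to -0.35 from -0.06. Among the 2992 dimmest genes 58 were higher and 200 lower in baseline B (22.5% higher), and among the 2992 brightest 89 were higher and 142 lower (38.5%). The part of the lower detection on baseline B arrays in the direction of the calls was not tested.

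The day-to-dusk clock genes had the largest median difference of the lists with at least 5 measured members. Of 10 measured genes whose transcripts peak between day and dusk in mouse liver, 7 were higher in baseline B and none lower, with a median difference of 1.63, beside 2.73% of all genes called higher and a median of -0.06. Both measured genes that peak between night and dawn, Arntl and Clock, were lower, beside 5.98% of all genes. The lists were chosen with earlier results of these data known, and Dbp, Usp2 and Arntl were given with the comparison. The rank and counts of the clock lists are therefore a description and no independent test.

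Dbp, a PAR bZIP factor that carries the clock's rhythm to metabolic genes, read 13.34, 12.73 and 13.21 in baseline B and 7.76, 8.06 and 10.99 in baseline A. The difference was 4.16 ± 0.60 (17.8-fold, adjusted p = 0.00278). The groups did not overlap, and the third baseline A array lay between the other two and all baseline B arrays. Usp2, a deubiquitinase with a strong daily rhythm in liver, read 10.58, 11.01 and 11.07 in baseline B and 6.24, 6.27 and 8.16 in baseline A, a difference of 4.0 ± 0.43 (adjusted p = 0.000412). The same baseline A array was again the one nearest to baseline B. The mean of its probes gave 2.95 for Usp2, also called. Without baseline A replicate 3 the differences were 5.18 for Dbp and 4.63 for Usp2, and without baseline A replicate 1 that of Dbp was 3.57, each still called.

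Arntl, which encodes BMAL1, read 5.20, 5.75 and 5.22 in baseline B, where no array detected it, and 8.74, 8.59 and 8.02 in baseline A, where all did. It was at least 4.0-fold lower in baseline B (adjusted p = 0.000260). Clock, its dimer partner, was detected on all 6 arrays at 9.97, 9.67 and 9.99 in baseline B and 10.83, 11.00 and 10.76 in baseline A, a difference of -0.99 ± 0.11 (adjusted p = 0.000563). For both genes every baseline B array was below every baseline A array.

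Among the repressors, Ciart, which acts against CLOCK and BMAL1, read 8.45, 9.35 and 9.27 in baseline B and 4.73, 5.06 and 6.37 in baseline A, where 1 of 3 arrays detected it (3.63 ± 0.46 as fitted, adjusted p = 0.00134). Per2 read 10.13, 10.83 and 10.56 in baseline B and 8.29, 8.22 and 9.18 in baseline A (1.94 ± 0.26, adjusted p = 0.00201). Bhlhe40, another repressor of the loop, differed by 1.61 ± 0.29 (adjusted p = 0.00801). Tef, a relative of Dbp, differed by 1.64 ± 0.25 (adjusted p = 0.00379). Nr1d2, a repressor of Arntl, read 10.42, 10.29 and 10.61 in baseline B and 9.54, 9.30 and 10.04 in baseline A (0.82 ± 0.18, adjusted p = 0.0185). It lost the call without baseline B replicate 3 or baseline A replicate 1 (adjusted p 0.0629 to 0.0751). With the 6 baseline arrays alone Nr1d2 and Bhlhe40 were not called (adjusted p = 0.0887 and 0.0662), which left 5 of 10 genes higher, and 3 were higher when those arrays were also blocked by replicate number.

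The other 3 measured day-to-dusk genes were not called. Per3 read 6.31, 6.48 and 6.62 in baseline B and 4.83, 5.47 and 6.14 in baseline A, without overlap (0.99 ± 0.31, adjusted p = 0.0639). Per1 read 9.49, 9.99 and 9.33 in baseline B and 9.10, 7.93 and 9.73 in baseline A (0.68 ± 0.50, adjusted p = 0.384). Nr1d1, the closest relative of Nr1d2, read 7.43, 6.54 and 7.23 in baseline B and 6.49, 6.6 and 8.40 in baseline A (-0.10 ± 0.48, adjusted p = 0.910). For Per1 and Nr1d1 the groups overlapped, with baseline A replicate 3 the highest or second highest of the 6 arrays. Hlf, Bhlhe41, Npas2 and Cry1 were detected on none of the 15 arrays, and Nfil3 had no probe listed for that gene alone. Cry2, a repressor that was not on the lists and was picked out after its values were seen, read 8.54, 8.68 and 8.73 in baseline B and 7.19, 7.38 and 7.98 in baseline A (1.13 ± 0.18, adjusted p = 0.00430).

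**Figure D2:**
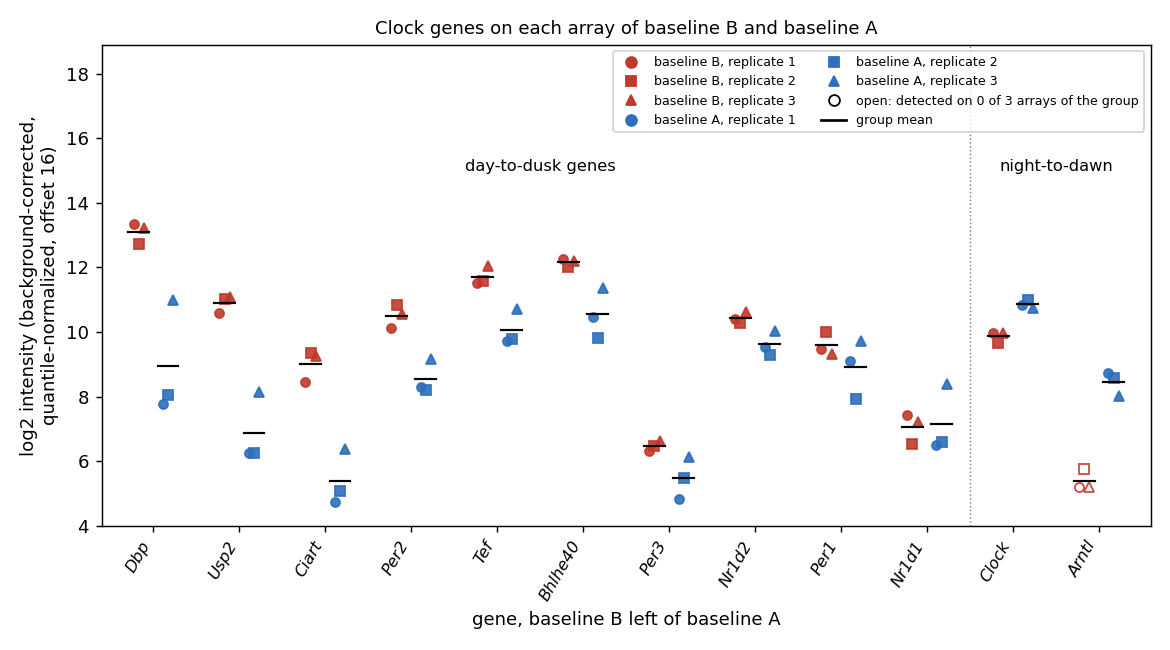
Log2 intensity (vertical) of the 12 measured clock genes (horizontal) on each array, baseline B in red left of baseline A in blue, with replicates 1, 2 and 3 as circles, squares and triangles, open symbols where no array of the group detected the gene, and the group mean as a bar. Baseline A replicate 3 (blue triangle) lies nearest to baseline B for Dbp, Usp2, Ciart, Per2, Tef, Bhlhe40, Nr1d2, Clock and Arntl.

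The baseline A arrays were not alike in this respect. For all 9 called clock genes of both phase lists, baseline A replicate 3 was the baseline A array nearest to the baseline B mean. Among the 761 other called genes without overlap, the nearest array was replicate 2 for 511, replicate 3 for 140 and replicate 1 for 110. In a principal component analysis of the 6 baseline arrays, the first component took 55.5% of the variance, and baseline A replicate 2 lay at -1.65 on it, beside -25.8 and -40.6 for baseline A replicates 1 and 3 and 18.2 to 27.4 for baseline B. The array nearest to baseline B thus differed between the clock genes and the whole set of genes.

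Promoter windows of 300 bases, from 250 before to 50 after the start site (RefSeq, GRCm38.p6), were available for 10 of the 12 measured clock genes, in 15 windows. They were searched on both strands for the E-box CACGTG, which reads the same on both strands and is bound by CLOCK and BMAL1, the D-box TTATGTAA, bound by DBP and TEF, and TAGGTCA, a core bound by Nr1d receptors. The 3 motifs do not overlap where found. The E-box stood in the windows of Tef, Per1 and Ciart, 4 of 15 windows, against 7.15% of all 32851 windows in the table. The D-box stood in 1 of 15 windows, that of Per3, against 0.938% of all windows, and TAGGTCA in 1, that of Arntl, against 2.61%. A match of letters shows no binding, and a window without one says nothing of sites elsewhere in the gene. Matched letters are in capitals in the sequences below, shown for Ciart, Tef and Arntl as called clock genes with a match, for Per3 as the gene with both D-boxes, and for Coq10b, whose window held an E-box and, on the reverse strand, a D-box. The windows of Rgs16 and Thrsp, also searched for the size of their differences, held none of the motifs.
Ciart, chr3:95882179-95882478, minus strand: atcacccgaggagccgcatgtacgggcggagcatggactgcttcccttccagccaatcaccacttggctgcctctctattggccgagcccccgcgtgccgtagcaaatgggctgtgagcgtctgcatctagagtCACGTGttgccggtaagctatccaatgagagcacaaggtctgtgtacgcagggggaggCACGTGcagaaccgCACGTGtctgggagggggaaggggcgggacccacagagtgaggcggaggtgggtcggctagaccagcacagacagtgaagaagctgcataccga
Tef, chr15:81811164-81811463, plus strand: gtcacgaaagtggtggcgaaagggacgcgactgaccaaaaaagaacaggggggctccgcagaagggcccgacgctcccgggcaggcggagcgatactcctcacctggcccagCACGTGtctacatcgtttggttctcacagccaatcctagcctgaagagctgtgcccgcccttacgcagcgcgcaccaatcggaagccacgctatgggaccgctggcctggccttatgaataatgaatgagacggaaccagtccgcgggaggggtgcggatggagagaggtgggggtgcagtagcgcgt
Arntl, chr7:113207261-113207560, plus strand: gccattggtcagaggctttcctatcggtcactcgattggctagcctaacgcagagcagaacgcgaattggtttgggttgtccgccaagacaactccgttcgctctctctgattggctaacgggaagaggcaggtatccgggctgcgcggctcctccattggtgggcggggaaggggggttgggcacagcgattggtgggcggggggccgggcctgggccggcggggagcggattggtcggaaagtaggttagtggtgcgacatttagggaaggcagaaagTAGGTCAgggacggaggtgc
Per3, chr4:151044616-151044915, minus strand: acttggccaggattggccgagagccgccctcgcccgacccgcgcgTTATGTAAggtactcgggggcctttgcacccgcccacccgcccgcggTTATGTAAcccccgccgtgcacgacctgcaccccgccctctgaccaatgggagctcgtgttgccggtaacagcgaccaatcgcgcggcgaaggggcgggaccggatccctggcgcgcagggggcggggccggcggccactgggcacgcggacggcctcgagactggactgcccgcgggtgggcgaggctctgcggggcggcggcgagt
Coq10b, chr1:55052520-55052819, plus strand: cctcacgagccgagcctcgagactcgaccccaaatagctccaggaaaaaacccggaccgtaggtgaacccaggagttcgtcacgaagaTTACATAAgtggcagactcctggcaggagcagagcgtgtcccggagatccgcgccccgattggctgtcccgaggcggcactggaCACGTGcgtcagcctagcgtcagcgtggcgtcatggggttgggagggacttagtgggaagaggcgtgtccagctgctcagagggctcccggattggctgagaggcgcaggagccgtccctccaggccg

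The window of Ciart held 3 E-boxes, beginning 116, 58 and 44 bases before the start site, and Ciart had the largest fitted upward difference of the genes shown. The 2 D-boxes of Per3 began 205 and 158 bases before its start, and Per3 was not called. The windows of Dbp and Usp2, with the largest differences of the day-to-dusk and night-to-dawn lists, held none of the 3 motifs. Coq10b, which encodes a coenzyme Q binding protein of mitochondria, is on none of the lists and was chosen after its values were seen. It read 11.57, 11.56 and 11.68 in baseline B and 10.03, 9.79 and 9.71 in baseline A (1.76 ± 0.16, adjusted p = 0.000241), so that the groups lay far apart beside the spread within them.

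Of 16 measured genes taken as outputs of the clock in liver, 5 were higher and 4 lower in baseline B, beside 2.73% and 5.98% of all genes, with a median difference of 0.63. With the 6 baseline arrays alone 1 was higher and 3 lower. Rgs16, a brake on G protein signalling with a daily rhythm in liver, had the largest difference of all called genes. It read 11.62, 12.05 and 11.86 in baseline B and 7.43, 6.28 and 8.48 in baseline A (4.45 ± 0.61, 21.8-fold, adjusted p = 0.00212). Upp2, a uridine phosphorylase, differed by 1.54 ± 0.29 (adjusted p = 0.0112). Nampt, the rate-limiting enzyme of NAD salvage, differed by 1.06 ± 0.22 (adjusted p = 0.0155), and Tspan4, a tetraspanin, by 0.89 ± 0.25 (adjusted p = 0.0423), but by 0.33 as the mean of its probes (adjusted p = 0.188). Gys2 is described with the glucose genes.

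Elovl3, a fatty acid elongase with a strong daily rhythm in mouse liver, read 9.05, 7.39 and 7.90 in baseline B and 11.19, 10.86 and 10.87 in baseline A (-2.86 ± 0.47, adjusted p = 0.00531). Cdkn1a, an inhibitor of the cell cycle, read 5.38, 5.53 and 5.30 in baseline B, below detection on all 3 arrays, and 7.98, 7.62 and 8.56 in baseline A. It was at least 3.04-fold lower in baseline B (adjusted p = 0.000162), the smallest adjusted p of the named genes. Avpr1a, a vasopressin receptor, read 10.00, 10.01 and 9.85 in baseline B and 11.03, 10.98 and 10.90 in baseline A (-1.02 ± 0.10, adjusted p = 0.000323). Leo1, a subunit of the PAF1 complex, differed by -0.87 ± 0.19 (adjusted p = 0.0181). All 4 were detected on every baseline A array and did not overlap between the groups.

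The other 7 outputs were not called. Cyp2a4, a steroid hydroxylase, was detected on no baseline B array, at 5.96, 6.25 and 5.70, and read 10.32, 6.56 and 8.76 in baseline A (adjusted p = 0.157). The near-identical Cyp2a5 read 14.43, 14.02 and 14.42 in baseline B and 13.82, 13.40 and 13.99 in baseline A (0.55 ± 0.18, adjusted p = 0.0715), while of 4 other probes listed for it 3 were called when every probe was tested, at 1.78, 1.75 and 0.46 (adjusted p = 0.00279, 0.00184 and 0.0340), and 1 was not, at 0.36, so that the 2 genes remain uncertain. Alas1 differed by 0.70 ± 0.41, Noct by 1.02 ± 0.47, Mfsd2a by 1.05 ± 1.37, Lonrf3 by -0.19 ± 0.35 and Tfrc by -0.09 ± 0.20. The calls of Nampt, Upp2, Leo1, Tspan4 and Gys2 did not hold without baseline A replicate 1, so that 1 output instead of 5 was then called higher. Those of Nampt and Tspan4 were also lost without baseline B replicate 3, that of Leo1 without baseline A replicate 3, and that of Tspan4 without baseline B replicate 2 or baseline A replicates 2 or 3. The adjusted p of the lost calls was 0.0505 to 0.149.

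Genes of fatty acid synthesis and of sugar use were higher in baseline B where they differed, with 1 exception. In fatty acid synthesis, 6 of 20 measured genes were higher (30%, beside 2.73% of all genes), 1 was lower and 13 were not called, with a median of 0.18. With the 6 baseline arrays alone, 3 were higher and none lower. In glucose uptake, glycolysis and glycogen, 4 of 9 measured genes were higher, none was lower, and the median was 0.38 (0.26 to 0.71 under the alternatives). Of these, 2 were higher with the 6 baseline arrays alone. In both lists a few members differed by more than 2-fold and most differed by little.

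Thrsp, a nuclear protein that promotes lipogenesis and is a classical thyroid hormone target, read 12.92, 14.27 and 13.25 in baseline B and 10.23, 10.43 and 10.53 in baseline A. The difference was 3.09 ± 0.32 (8.49-fold, adjusted p = 0.000351), and all baseline B arrays were above all baseline A arrays. Aacs, which feeds ketone bodies into lipid synthesis, read 12.26, 12.17 and 11.62 in baseline B and 10.17, 10.32 and 10.14 in baseline A (1.81 ± 0.28, adjusted p = 0.00430). Srebf1, the insulin-responsive regulator of this pathway, read 9.90, 9.84 and 9.27 in baseline B and 8.78, 8.69 and 8.55 in baseline A (0.99 ± 0.19, adjusted p = 0.0118). Elovl6, a fatty acid elongase, differed by 1.15 ± 0.27 (adjusted p = 0.0229), and by 0.85 as the mean of its probes (adjusted p = 0.0580). Mid1ip1, a partner of Thrsp that activates acetyl-CoA carboxylase, differed by 0.81 ± 0.18 (adjusted p = 0.0202). Fasn, the fatty acid synthase itself, read 7.24, 7.84 and 6.43 in baseline B and 6.30, 5.40 and 5.60 in baseline A on a dim probe that 3 of the 6 arrays detected (1.40 ± 0.41, adjusted p = 0.0494).

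Mlxipl, which encodes the sugar-sensing factor ChREBP, went the other way at 11.99, 12.07 and 11.90 in baseline B and 13.06, 12.37 and 13.34 in baseline A (-0.94 ± 0.26, adjusted p = 0.0453). Among the 13 genes not called were several enzymes linked to the pathway. Acaca, an acetyl-CoA carboxylase gene also on the list, was detected on none of the 15 arrays and was not tested. Acly differed by 0.04 ± 0.17, Acacb by 0.04 ± 0.18, Acss2 by 0.22 ± 0.18, Me1 by 0.47 ± 0.28 and Scd1 by -0.27 ± 0.28. Gpam, the first enzyme of triglyceride synthesis, read 7.12, 7.58 and 6.80 in baseline B and 6.20, 6.65 and 6.05 in baseline A (0.86 ± 0.25, adjusted p = 0.0501). With the replicate number as a block, Fasn and Mlxipl were no longer called (adjusted p = 0.0562 and 0.0633). Elovl6 and Mid1ip1 lost the call without baseline B replicate 2 or baseline A replicates 1 or 3 (adjusted p 0.0626 to 0.0862), and Fasn and Mlxipl without baseline B replicates 1 or 2 or baseline A replicates 1 or 3, Fasn also without baseline A replicate 2 and Mlxipl without baseline B replicate 3 (adjusted p 0.0713 to 0.167), so that 3 of 20 genes were higher without baseline B replicate 2 or baseline A replicates 1 or 3.

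Slc2a2, the glucose transporter of hepatocytes, read 12.52, 12.63 and 12.38 in baseline B and 10.92, 10.85 and 10.60 in baseline A (1.72 ± 0.18, 3.29-fold, adjusted p = 0.000323). Its other probes, which are dimmer, differed by 2.5 and 3.06, and the mean of its probes by 2.43. Pklr, liver pyruvate kinase, read 8.02, 9.05 and 7.79 in baseline B and 5.99, 6.68 and 5.76 in baseline A (2.15 ± 0.36 as fitted, adjusted p = 0.00567). For Pklr, baseline A replicates 1 and 3 lay below the lowest detected levels of those arrays, 6.01 and 6.07. Its difference without background correction was 1.34, also called (adjusted p = 0.00376). Gys2, liver glycogen synthase, read 9.87, 10.62 and 9.83 in baseline B and 7.45, 8.71 and 6.22 in baseline A (2.64 ± 0.51, adjusted p = 0.0115). Ppp1r3g, a subunit that directs a phosphatase to glycogen, read 8.66, 9.71 and 9.87 in baseline B and 8.42, 6.62 and 7.16 in baseline A (2.01 ± 0.44, adjusted p = 0.0187). Of the 4, the gap between the groups was narrowest for Ppp1r3g, where baseline A replicate 1 lay just below baseline B replicate 1. The other glycogen subunits Ppp1r3b (-0.01 ± 0.40) and Ppp1r3c (-0.84 ± 0.81), ketohexokinase Khk (0.38 ± 0.23), Pfkl (0.04 ± 0.12) and the glucokinase regulator Gckr (-0.64 ± 0.19, adjusted p = 0.0501) were not called. Another Khk probe, also bright, was called when every probe was tested, at 1.04 (adjusted p = 0.0445), so that Khk remains uncertain. Gys2 lost the call without baseline A replicate 1 (adjusted p = 0.0508), and its difference was 3.27 without baseline A replicate 2 and 2.02 without baseline A replicate 3. Ppp1r3g lost it without baseline B replicates 2 or 3 or baseline A replicate 3 (adjusted p 0.0623 to 0.0708).

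**Figure D3:**
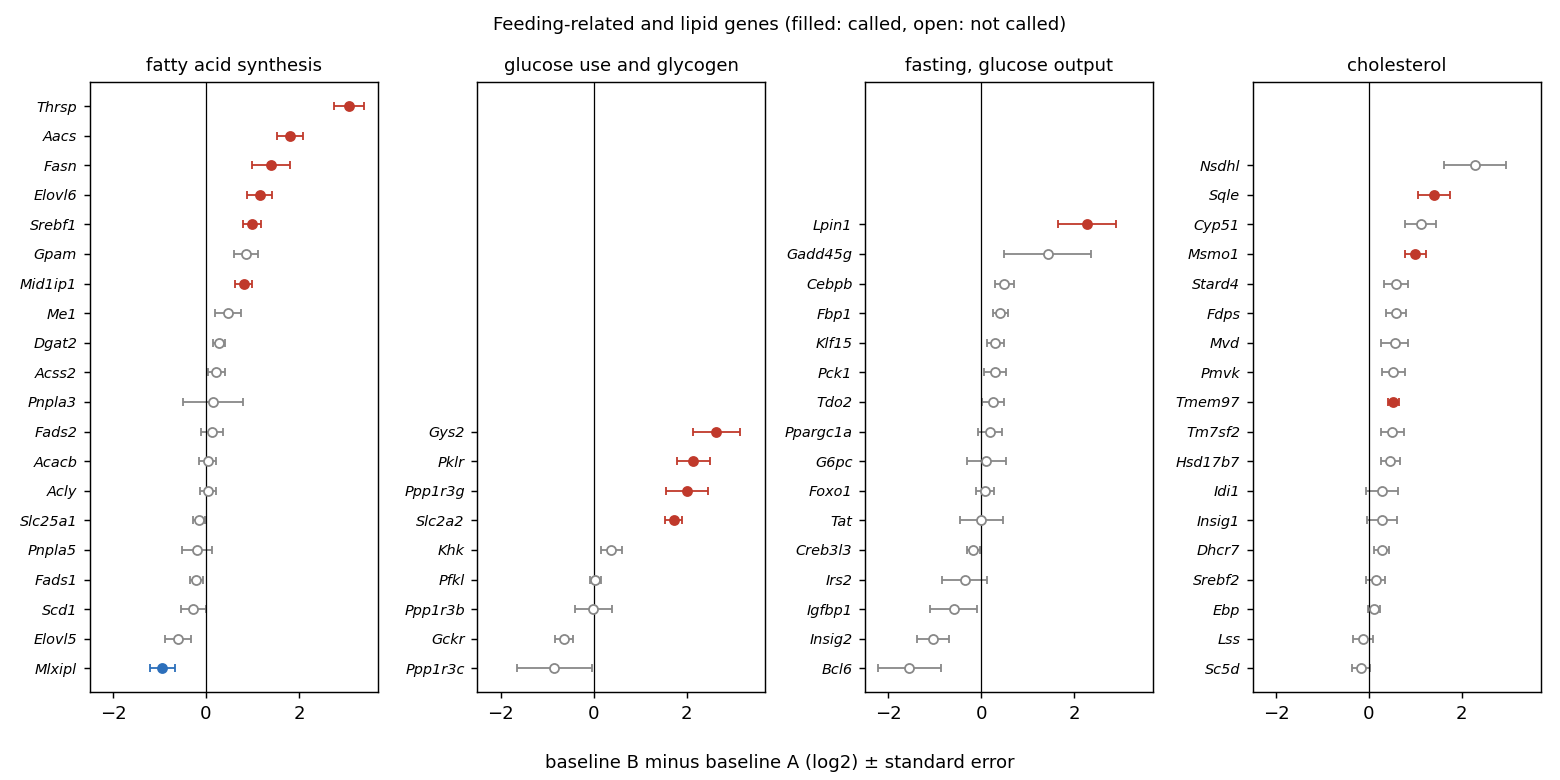
Difference between baseline B and baseline A (log2, horizontal, with its standard error) for every measured gene of 4 lists, filled red where called higher in baseline B, filled blue where called lower and open grey where not called. The panels hold 20, 9, 16 and 18 genes, of which 6, 4, 1 and 3 were higher and 1, 0, 0 and 0 lower.

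Genes of fasting and glucose output showed 1 call in 16 measured genes. Lpin1, a phosphatidic acid phosphatase and coactivator induced by fasting, was higher in baseline B, at 9.67, 12.37 and 10.88 against 8.00, 9.07 and 8.99 in baseline A (2.28 ± 0.62, adjusted p = 0.0401). The spread within baseline B was wide: the difference was 2.93 without baseline B replicate 1 and 1.59 without baseline B replicate 2, and the call was lost without baseline B replicates 2 or 3 or baseline A replicates 1 or 3 (adjusted p 0.0898 to 0.150). The gluconeogenic genes Pck1 (0.30 ± 0.24), G6pc (0.11 ± 0.42) and Fbp1 (0.41 ± 0.16) and the coactivator Ppargc1a (0.19 ± 0.26) were not called. Nor were Igfbp1 (-0.60 ± 0.50), Irs2 (-0.36 ± 0.49), Insig2 (-1.04 ± 0.35) and Bcl6 (-1.54 ± 0.67), with overlap between the groups in all but Fbp1.

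Of 25 measured genes of PPARα action and fat oxidation, none was higher and 3 were lower in baseline B (12%, beside 5.98% of all genes), with a median of -0.29. Cpt2, the inner carnitine palmitoyltransferase of mitochondria, differed by -0.55 ± 0.14 (adjusted p = 0.0278), and Ehhadh, a peroxisomal enzyme of fat oxidation, by -0.67 ± 0.17 (adjusted p = 0.0327). Cpt1b was detected on no baseline B array and was at least 1.13-fold lower (adjusted p = 0.0453). Cyp4a14, a fatty acid hydroxylase induced by PPARα, read 10.91, 8.54 and 9.35 in baseline B and 13.69, 11.53 and 12.35 in baseline A without overlap, and was not called (-2.92 ± 0.93, adjusted p = 0.0646). With a replicate block Cpt1b was not called (adjusted p = 0.0635), and the count of 3 was 0 without baseline B replicates 2 or 3 or baseline A replicates 1 or 3 (adjusted p of Cpt2, Ehhadh and Cpt1b 0.0528 to 0.158) and 7 without baseline A replicate 2.

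In cholesterol synthesis and uptake, 3 of 18 measured genes were higher in baseline B (16.7%, beside 2.73% of all genes), none was lower, and the median was 0.52. Sqle, squalene epoxidase, read 10.56, 10.87 and 10.90 in baseline B and 8.92, 9.85 and 9.36 in baseline A (1.40 ± 0.35, adjusted p = 0.0286). Msmo1, a sterol demethylase, read 12.14, 12.43 and 12.39 in baseline B and 11.25, 11.60 and 11.12 in baseline A (1.00 ± 0.23, adjusted p = 0.0203), and Tmem97, a sterol-responsive membrane protein, differed by 0.53 ± 0.12 (adjusted p = 0.0229). Nsdhl (2.29 ± 0.67, adjusted p = 0.0516) and Cyp51 (1.11 ± 0.33, adjusted p = 0.0534), both enzymes of the late pathway, did not overlap between the groups and were not called. The regulator Srebf2 differed by 0.15 ± 0.20 and Insig1 by 0.29 ± 0.32. Other, dimmer probes of Insig1 differed by 1.00 and 0.92 and were not called when every probe was tested (adjusted p = 0.0504 and 0.0694). None of the 3 calls remained without baseline B replicates 2 or 3 or baseline A replicates 1 or 3 (adjusted p 0.0523 to 0.119), Tmem97 also lost its call without baseline B replicate 1, and 5 genes were called without baseline A replicate 2 and 6 with the mean of each gene's probes.

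Stress genes that were called were lower in baseline B. Of 11 measured genes of the integrated stress response, which cells mount when amino acids are scarce or translation is slowed, 3 were lower in baseline B and none higher (27.3%, beside 5.98% of all genes), with a median of -0.82. Atf5, a transcription factor of this response, read 12.32, 11.87 and 12.23 in baseline B and 13.28, 13.00 and 13.34 in baseline A (-1.07 ± 0.15, adjusted p = 0.00212). Asns, asparagine synthetase, read 6.64, 7.55 and 7.73 in baseline B and 8.90, 10.11 and 9.63 in baseline A (-2.24 ± 0.53, adjusted p = 0.0229). Nupr1, a stress-induced nuclear protein, differed by -1.51 ± 0.32 (adjusted p = 0.0161). The hormone gene Fgf21 read 7.06, 6.49 and 5.90 in baseline B and 9.37, 8.51 and 8.53 in baseline A without overlap, and was not called (-2.32 ± 0.68, adjusted p = 0.0504). With a replicate block or with the mean of each gene's probes 5 of the 11 were lower. The call of Asns was lost without baseline B replicates 1 or 2 or baseline A replicates 1 or 3, and that of Nupr1 without baseline B replicate 3 or baseline A replicate 3 (adjusted p 0.0514 to 0.0784), so that 1 of 11 was lower without baseline A replicate 3 and 6 without baseline A replicate 2.

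Chaperones were lower in part: Hsp90aa1 (-1.05 ± 0.23, adjusted p = 0.0188) and its co-chaperone Stip1 (-0.64 ± 0.13, adjusted p = 0.0157) were the 2 called of 11 measured heat shock genes, and the endoplasmic reticulum chaperone Hsp90b1 (-0.72 ± 0.18, adjusted p = 0.0260) the 1 called of 13 genes of the unfolded protein response. These calls were lost without baseline A replicate 1 or baseline B replicate 3, those of both Hsp90 genes also without baseline B replicate 2 or baseline A replicate 3 (adjusted p 0.050 to 0.103). None of 13 measured immediate early genes, whose transcripts rise within minutes of handling or other stimuli, was called, and 4 had an unadjusted limma p under 0.05, beside 29.8% of all genes. The list held 23 genes. Of those not tested, Fosb, Egr2, Ier2, Ier5, Klf10, Myc, Btg2 and Nr4a1 were detected on none of the 15 arrays, and Atf3 and Klf4 on 1. With the 6 baseline arrays alone 1 of the 13 measured genes was higher and 1 lower. Their uncalled differences ran from -1.56 for Ccn2, with 9.0, 9.09 and 8.65 in baseline B and 10.78, 10.06 and 10.57 in baseline A, to 1.44. Among 13 glucocorticoid targets and 5 targets of p53 the only call was Cdkn1a, which both lists hold. The glucocorticoid target Fkbp5 read 7.85, 10.08 and 9.54 in baseline B and 8.43, 8.06 and 8.60 in baseline A (0.79 ± 0.56).

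Choline and methyl group metabolism held 4 lower genes and no higher one among 18 measured (22.2%, beside 5.98%), with a median of -0.18. Chka, the choline kinase that starts phosphatidylcholine synthesis, read 4.99, 5.26 and 5.51 in baseline B, below detection on all 3 arrays, and 8.20, 7.60 and 8.74 in baseline A. It was at least 3.31-fold lower in baseline B (adjusted p = 0.000221), and its second probe was lower as well when every probe was tested (adjusted p = 0.000136). Cbs, which draws homocysteine into cysteine synthesis, read 11.59, 10.97 and 10.72 in baseline B and 12.42, 12.35 and 12.30 in baseline A (-1.26 ± 0.26, adjusted p = 0.0155). Pcyt2 of phosphatidylethanolamine synthesis differed by -0.64 ± 0.16 (adjusted p = 0.0272), and Sardh, sarcosine dehydrogenase, by -0.59 ± 0.16 (adjusted p = 0.0424). Sardh was not called with a replicate block (adjusted p = 0.0664). Without baseline A replicate 1 or baseline B replicate 3, Cbs, Pcyt2 and Sardh lost their calls and Chka alone was left; Pcyt2 and Sardh also lost theirs without baseline A replicate 3, and Sardh without baseline B replicates 1 or 2 (adjusted p 0.0566 to 0.150).

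The remaining genes with the largest differences had no common list. Upward they were Ugt1a5 (2.36 ± 0.52, adjusted p = 0.0189) and Ugt1a1 (1.93 ± 0.45, adjusted p = 0.0226), which conjugate bilirubin and drugs with glucuronic acid and share most of their exons, so that a probe may read both, Umps of pyrimidine synthesis (1.77 ± 0.43, adjusted p = 0.0263) and Acot11, an acyl-CoA thioesterase, which no baseline A array detected and which was at least 2.76-fold higher (adjusted p = 0.0492). Downward they were Tff3, a trefoil peptide, which read 5.36, 8.36 and 8.12 in baseline B and 10.25, 11.13 and 10.20 in baseline A (-3.25 ± 0.89, adjusted p = 0.0401), Tubb2b, a tubulin (-2.58 ± 0.53, adjusted p = 0.0155), Spon2, an extracellular matrix protein (-2.19 ± 0.42, adjusted p = 0.0115), Rab11fip4, a partner of the trafficking protein RAB11 (-2.18 ± 0.45, adjusted p = 0.0155), the nuclear long non-coding RNA Neat1 (-2.11 ± 0.39, adjusted p = 0.00967), Denn2b (-2.07 ± 0.31, adjusted p = 0.00392) and Lrfn3 (-2.05 ± 0.23, adjusted p = 0.000544). Ypel2, detected on no baseline B array, was at least 2.36-fold lower (adjusted p = 0.00227), and Dnaic1, a dynein chain of cilia, at least 2.63-fold lower (adjusted p = 0.0178).

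Of these, Lrfn3, Denn2b and Ypel2 kept their calls with each array left out. Tff3 and Acot11 lost theirs whichever of the 6 arrays was left out (adjusted p 0.0506 to 0.113), and the difference of Tff3 was -2.29 without baseline B replicate 1. Acot11 was not called with a replicate block or as the mean of its probes either (adjusted p = 0.0643 and 0.163). The mean of the probes of Umps was 0.94. Neat1 and Spon2 lost theirs without baseline A replicate 1 (adjusted p = 0.0514 and 0.0523). Ugt1a5, Ugt1a1 and Umps lost theirs without baseline B replicate 2 or baseline A replicates 1 or 3, Umps also without baseline B replicate 1 (adjusted p 0.0622 to 0.107). Tubb2b lost its call without baseline B replicates 2 or 3 or baseline A replicate 1, Rab11fip4 without baseline B replicate 3 or baseline A replicates 1 or 3, and Dnaic1 without baseline B replicate 3 or baseline A replicate 3 (adjusted p 0.0506 to 0.0580).

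Markers of other cell types held few calls. None of 12 measured Kupffer cell and macrophage markers, 3 lymphocyte, 2 neutrophil, 3 erythroid or 3 pancreas markers was called, although 1 Kupffer and all 3 pancreas markers had an unadjusted limma p under 0.05, beside 29.8% of all genes. The lymphocyte list held 14 genes and the neutrophil list 12, and 0 of their measured markers were detected on all 6 baseline arrays. All of these had negative differences, with medians of -0.40 for lymphocyte and -0.98 for neutrophil markers. Lymphocyte sums were 134 to 300 in baseline B and 260 to 279 in baseline A. Neutrophil sums were 101 to 247 in baseline B and 239 to 285 in baseline A. Summed Kupffer markers ran from 5306 to 7768 in baseline B and 5434 to 6999 in baseline A on the linear scale, and the summed erythroid markers from 10355 to 17281 in baseline B and 10940 to 15023 in baseline A. Stellate cell and fibroblast markers summed to 13386 to 17024 in baseline B and 15907.5 to 23805 in baseline A, with 1 of 13 lower: Col3a1, a fibrillar collagen (-1.38 ± 0.39, adjusted p = 0.0456). Of these 13 markers, 11 had a negative and 2 a positive difference, with a median of -0.43 beside -0.06 for all genes. An unadjusted limma p under 0.05 was found for 6 of them, and 4 were called lower without baseline A replicate 2. Acta2, the actin of contractile cells, read 5.90, 6.51 and 7.17 in baseline B and 9.01, 7.66 and 10.47 in baseline A without overlap and was not called (-2.52 ± 0.88, adjusted p = 0.0843). The endothelial phosphatase Ptprb was the 1 lower of 15 endothelial markers (-0.67 ± 0.15, adjusted p = 0.0190), whose sums of 13340.3 to 16035 in baseline B overlapped 14022.5 to 16248 in baseline A. Of these 15 markers, 11 had a negative and 4 a positive difference, with a median of -0.24, and 5 had an unadjusted limma p under 0.05. Of 3 measured cholangiocyte markers, the water channel Aqp1 was higher (0.54 ± 0.14, adjusted p = 0.0343; 0.0561 as the mean of its probes) and the factor Sox9 lower (-1.32 ± 0.33, adjusted p = 0.0299). Summed pancreas markers, of which 3 of 19 were measured, were 18203 to 20147 in baseline B and 14831 to 16326 in baseline A. Amy2a5 made up most of this sum, with log2 means of 14.04 in baseline B and 13.79 in baseline A (0.24, not called). The pancreas genes Cela3b, Prss2, Cpa1 and Clps were detected on none of the 15 arrays. Muscle had 1 measured marker, detected on no baseline array. Col3a1 was not called with a replicate block (adjusted p = 0.0690), and the calls of Col3a1, Ptprb, Aqp1 and Sox9 were each lost without baseline B replicate 3 or baseline A replicates 1 or 3, with Col3a1, Aqp1 and Sox9 lost also without baseline B replicate 1, Aqp1 and Sox9 without baseline B replicate 2 and Aqp1 without baseline A replicate 2 (adjusted p 0.0541 to 0.172).

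Lpl, lipoprotein lipase, was the only adipose marker of 10 that was measured. It read 10.36, 8.92 and 10.15 in baseline B and 11.73, 12.05 and 12.17 in baseline A, a difference of -2.18 ± 0.47 (adjusted p = 0.0185), and it lost the call without baseline B replicate 2 or baseline A replicates 1 or 3 (adjusted p 0.0573 to 0.0658). The defining fat cell genes Adipoq, Plin1 and Lep did not pass the filter on detection. The part of other cell types in the differences above was not tested.

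The values of the treated groups stand beside the baseline difference, with no test here, since both T3 comparisons use these baselines as their controls. Dbp read 12.74, 12.66 and 12.69 after chronic T3, 13.58, 13.23 and 13.03 after withdrawal, 13.34, 12.73 and 13.21 in baseline B, 12.20, 12.85 and 12.57 after acute T3 and 7.76, 8.06 and 10.99 in baseline A. All arrays outside baseline A thus lay between 12.20 and 13.58, and baseline A lay below them. Arntl read 5.95, 6.21 and 5.16 after chronic T3, 5.66, 4.93 and 5.70 after withdrawal and 6.52, 6.01 and 6.07 after acute T3, close to the 5.20 to 5.75 of baseline B and below the 8.02 to 8.74 of baseline A. Usp2 took a middle level after acute T3, at 8.26, 9.17 and 9.33, between 10.42 and 11.48 in chronic T3, withdrawal and baseline B and 6.24 to 8.16 in baseline A. Rgs16 read 8.78, 8.71 and 9.88 after acute T3, 9.21, 9.92 and 10.69 after chronic T3 and 11.79, 10.36 and 12.65 after withdrawal. Thrsp read 13.77, 13.48 and 13.84 after acute T3, 14.11, 14.54 and 14.88 after chronic T3 and 13.08, 13.99 and 13.92 after withdrawal, so that baseline A, at 10.23 to 10.53, was again the group apart.

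The levels of Elovl3 divided by subset. It read 6.19, 7.95 and 8.09 after chronic T3, 7.74, 7.84 and 7.91 after withdrawal and 9.05, 7.39 and 7.90 in baseline B, and 11.18, 10.24 and 10.87 after acute T3 and 11.19, 10.86 and 10.87 in baseline A. The 9 arrays of the subset with baseline B were all below the 6 arrays of the subset with baseline A.

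**Figure D4:**
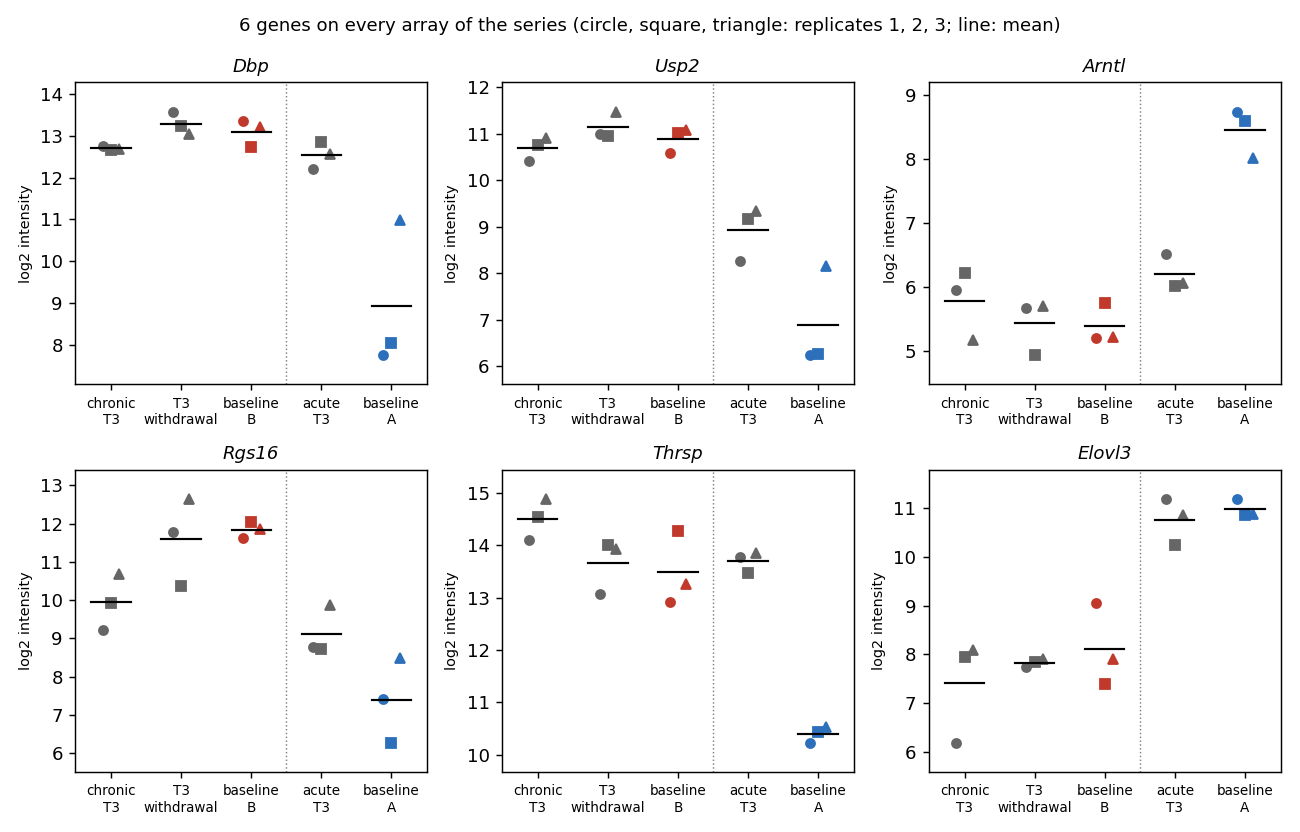
Log2 intensity (vertical) of Dbp, Usp2, Arntl, Rgs16, Thrsp and Elovl3 on all 15 arrays (horizontal, by group), with chronic T3, T3 withdrawal and baseline B left of the dotted line and acute T3 and baseline A right of it, replicates as circle, square and triangle and group means as bars. Dbp, Arntl and Thrsp of baseline A stand apart from the other 4 groups, whereas Elovl3 divides by subset.

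**Figure D5:**
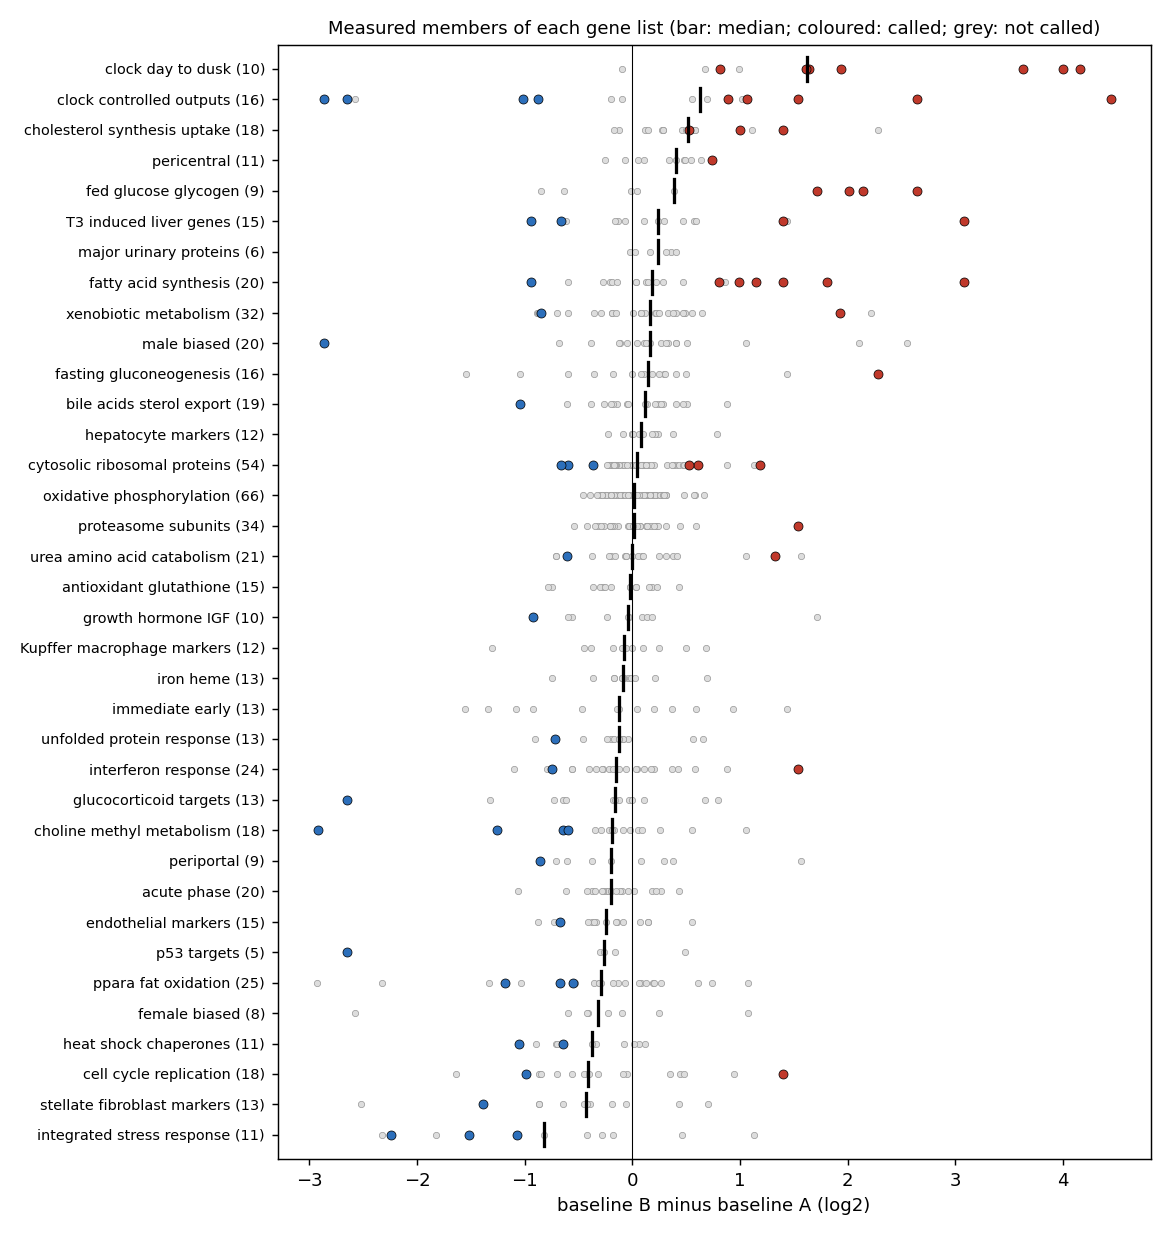
Difference between baseline B and baseline A (log2, horizontal) of each measured member of the lists with at least 5 measured members (vertical, number of members in parentheses), with called members in red or blue, others in grey and the list's median as a bar. The day-to-dusk clock genes have the highest median, 1.63, and the integrated stress response the lowest, -0.82.

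Several lists held few or no calls. None of 66 measured genes of oxidative phosphorylation was called (median 0.02), nor any of 20 acute phase genes, 15 of glutathione and antioxidant defence, 13 of iron and haem, 8 female-biased genes or 6 major urinary proteins. At an unadjusted limma p under 0.05 there were 14 of 66, 5 of 20, 4 of 15, 0 of 13, 1 of 8 and 0 of 6 in the same order, beside 29.8% of all genes, and the median of oxidative phosphorylation was -0.15 with scaling by the median of each array. Without baseline A replicate 2, 7 genes of oxidative phosphorylation were called higher and 1 lower. Of the 20 acute phase genes, 15 had a negative difference, and 1 was called lower with the 6 baseline arrays alone and up to 3 in other alternative fits. Cp and Itih4 each had another probe called lower when every probe was tested (-1.41 and -0.68, adjusted p = 0.00476 and 0.0128). Their remaining probes were not called. Of the 8 female-biased genes measured from a list of 25, 2 were detected on all 6 baseline arrays and 3 on none of them. The only male-biased call among 20 was Elovl3. Ribosomal protein genes were called in both directions, 3 higher (Rps6, Rpl24 and Rps9) and 3 lower (Rpl23, Rpl28 and Rps15a) of 54, with a median of 0.04. Each share was 5.56%, beside 2.73% of all genes called higher and 5.98% called lower. Rps15a was detected on no baseline B array and on all 3 of baseline A. Its means of 5.51 in baseline B and 6.17 in baseline A lay near background, so no bound on its fold is given. None of the 6 was called with a replicate block (adjusted p 0.0506 to 0.0664) or without baseline B replicates 2 or 3 or baseline A replicates 1 or 3, nor were Rps6, Rpl23, Rpl28 and Rps15a without baseline B replicate 1 (adjusted p 0.0558 to 0.174), while 12 were higher without baseline A replicate 2. Rpl23 differed by -0.14 and Rps9 by 0.50 as the mean of their probes, neither called (adjusted p = 0.339 and 0.0579), and 1 probe of Rpl23 was 0.41 higher in baseline B. Many ribosomal genes have near-identical processed copies that a probe may also read. Among 24 interferon-response genes, the immunoproteasome subunit Psmb8 was higher (1.54 ± 0.32, adjusted p = 0.0160), also the 1 call of 34 proteasome subunits, and Stat2 lower (-0.75 ± 0.19, adjusted p = 0.0333), the second not with a replicate block (adjusted p = 0.0557). A dimmer probe of Psmb8 differed by 0.43 and was not called when every probe was tested (adjusted p = 0.214). For the proteasome subunit Psmd7, 1 other probe was then called lower, at -0.98 (adjusted p = 0.0245), and another, at 0.73, was not called. Psmb8 lost its call without baseline B replicate 2 or baseline A replicates 1 or 3, and Stat2 also without baseline B replicates 1 or 3 (adjusted p 0.0550 to 0.128).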

How the data were processed

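The submitters took total RNA from 15 to 20 mg of liver, labelled it with biotin and hybridized each sample to 1 Illumina bead array of 45281 probes. Per the file headers, the deposited signal file holds an intensity per probe and array on a linear scale without scaling between arrays, and a detection p-value for each. A second intensity, equalized between arrays by the authors in their series-wide value table, served as an alternative. Partek 6.6 is named, without a role, in the submitters' processing notes, and the labels name no scanner software.

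The neqc function of limma 3.58.1 (R 4.3.3) subtracted background by means of the detection p-values, quantile-normalized the arrays and returned log2 values after adding 16. Probes with a detection p under 0.01 on 3 or more arrays were kept (15361). The probe annotation listed 1 gene for 34885 probes, several for 18 and none for 10378. The brightest kept probe stood for its gene, giving 8976 genes. Among genes with 2 or more kept probes, 673 had a called probe, 580 of these had also a probe that was not called, and 10 had probes called in both directions. The limma model held a mean for each of the 5 groups (13.1 moderated degrees of freedom), and the contrast of baseline B with baseline A was tested 2-sided. No permutation test was run, since 3 arrays against 3 reach no p below 0.1. The number of arrays limits the precision.

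The 45 gene lists, their members and the rule for naming genes were chosen with earlier results of these data known. The rule takes the 15 largest differences in each direction among called genes without overlap, all measured members of 7 clock, lipid and glucose lists, and in the other lists every called member and at least the 3 with the smallest adjusted p, without predicted symbols. Lists were described by counts and medians.

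The groups share replicate numbers in the labels, which give them no meaning. Residuals of baseline arrays with the same number correlated at 0.126, 0.250 and 0.195, and every other pairing at 0.019 or below, so the numbers were taken as a pairing on the evidence of the data alone. The fit printed has no block, so its p-values take no account of a pairing, and a replicate block was an alternative. Further alternatives were other background corrections and scalings, the authors' values, other detection filters and probe summaries, variance moderation, array weights, the 6 baseline arrays alone, other thresholds and each array left out in turn. The code was tested on simulated data.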

Additional observations from a re-analysis of the deposited data

How the results depend on the processing

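No named call changed direction under any alternative. The 782 calls (245 higher, 537 lower in baseline B) ran from 128 to 1717 with 1 array left out (49 to 699 higher, 79 to 1018 lower). They were 185 (52 and 133) with the 6 baseline arrays alone, 79 (32 and 47) with array weights, whose fit stopped before its tolerance, 501 (163 and 338) without a detection filter and 1639 (514 and 1125) with every probe tested, a setting not applied to single genes and lists. Thresholds of 0.01, 0.1 and 0.05 with at least 2-fold gave 107 (36 and 71), 1609 (566 and 1043) and 260 (89 and 171). Scaling by the median gave 58 higher and 1068 lower, ended the calls of Srebf1, Nampt, Nr1d2, Mid1ip1, Gulo, Rps9, Rpl24, Tmem97, Nags, Tspan4, Rpl28, Rps6, Fasn and Aqp1, and brought the medians of fatty acid and cholesterol synthesis to 0.01 and 0.19, and the lower members of PPARα action, the integrated stress response and heat shock genes to 7, 6 and 4. The 6 baseline arrays alone kept 35 of the 81 named calls and ended those of Abcc4, Aqp1, Atp2a2, Bhlhe40, Cdh1, Col3a1, Cpt1b, Cpt2, Ehhadh, Fasn, Gstm4, Gulo, Gys2, Hsp90aa1, Hsp90b1, Kynu, Leo1, Lpin1, Mid1ip1, Mlxipl, Nags, Nampt, Nr1d2, Pcyt2, Ppp1r3g, Psmb8, Ptprb, Rpl23, Rpl24, Rpl28, Rps15a, Rps6, Rps9, Rrm2, Sardh, Sox9, Srebf1, Stat2, Stip1, Tff3, Tmem97, Tspan4, Ugt1a1, Ugt1a5, Umps and Upp2 (adjusted p 0.0540 to 0.155). Array weights ended 59. The mean of a gene's probes ended 9, those of Acot11, Aqp1, Atp2a2, Elovl6, Igfbp3, Mcm6, Rpl23, Rps9 and Tspan4 (adjusted p 0.0561 to 0.339). Fits without background correction kept 78 of 81 named calls and gave smaller differences for dim genes, such as 2.30 for Ciart and 3.20 for Usp2.

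With a replicate block 659 genes were called (219 higher, 440 lower), 610 of them among the 782, and of the 81 named calls 14 were lost, 13 given above with their blocked values and Nags below, and no other. With a replicate block and the 6 baseline arrays alone, 92 were called (34 and 58), Dbp kept its difference of 4.16 but not its call (adjusted p = 0.0619), and Arntl and Usp2 kept theirs. Of the 81 named calls, 23 held with each array left out and 20 under all other fits as well, save array weights and the block on 6 arrays. The files name no slide, so a slide block was not run. The cause of these shifts was not tested. Signal over background limits Arntl, Chka, Cdkn1a, Ypel2, Dnaic1, Cpt1b and Acot11 to bounds, and Rrm2 and Rps15a to a direction.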

Other observations

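Other metabolic genes differed singly, beside 2.73% of all genes called higher and 5.98% called lower. Gulo, the last enzyme of vitamin C synthesis in mice and a pericentral gene, was the 1 call of 11 pericentral genes (0.74 ± 0.18, adjusted p = 0.0264), whose median was 0.41, and the adhesion protein Cdh1 the 1 call of 9 periportal genes (-0.86 ± 0.21, adjusted p = 0.0248). Nags, which makes the activator of the urea cycle, was higher in baseline B (1.33 ± 0.36, adjusted p = 0.0388; 0.0522 with a replicate block), and Kynu, an enzyme of tryptophan breakdown, lower (-0.61 ± 0.15, adjusted p = 0.0277), the 2 calls of 21 genes of nitrogen and amino acid catabolism. Gstm4, a glutathione transferase, read 10.12, 9.74 and 10.04 in baseline B and 11.01, 10.69 and 10.76 in baseline A (-0.85 ± 0.15, adjusted p = 0.00766), and with Ugt1a1 it was called among 32 genes of foreign compound metabolism. The exporter Abcc4 was the 1 call of 19 bile acid genes (-1.04 ± 0.27, adjusted p = 0.0318). Igfbp3, a carrier of insulin-like growth factors, was the 1 call of 10 genes of growth hormone action (-0.92 ± 0.21, adjusted p = 0.0198). Its second, dim probe differed by 0.02, and the mean of its probes by -0.45 (adjusted p = 0.272).

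Of 15 measured genes known as T3-induced in liver, 2 were higher (Thrsp and Fasn) and 2 lower (Mlxipl and Atp2a2, the calcium pump of the endoplasmic reticulum, at -0.66 ± 0.17, adjusted p = 0.0319), and Dio1, Me1 and the others were not called. Another Atp2a2 probe of like brightness was 0.38 higher in baseline B, and the mean of its probes differed by -0.26 (adjusted p = 0.199). Of 18 replication and cell cycle genes, Rrm2 was called higher (adjusted p = 0.0161) and the helicase subunit Mcm6 lower (-0.98 ± 0.25, adjusted p = 0.0312, and 0.0926 as the mean of its probes). Rrm2 was detected on no baseline A array and not on all 3 baseline B arrays. Its means of 6.74 in baseline B and 5.33 in baseline A lay near background, so no bound on its fold is given. Gstm4 kept its call with each array left out and lost it with the 6 baseline arrays alone (adjusted p = 0.0540). The calls of Gulo, Cdh1, Nags, Abcc4, Igfbp3, Atp2a2, Mcm6, Kynu and Rrm2 were lost without baseline A replicate 1 or baseline A replicate 3, and apart from Rrm2 each was lost also without 2 or 3 of the baseline B replicates (adjusted p 0.0505 to 0.143).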
